A study of Saccharomyces cerevisiae with 8 samples.

Results

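The genes for mitochondrial ribosomal proteins were followed through the growth of yeast colonies. They were taken by symbol, as every entry of the deposited gene table named MRPL, MRPS, MRP or RSM with a number, together with MNP1, IMG1 and IMG2. The rule found 69 of the 6936 entries of that table, of which 40 encode proteins of the large subunit and 28 proteins of the small subunit. The remaining member, MRP8, was matched through its name and is not known as a ribosomal protein, so it was placed in neither subunit. All samples were Saccharomyces cerevisiae BY4741, a MATa laboratory strain with the genotype his3Δ1 leu2Δ0 met15Δ0 ura3Δ0, which the Log phase samples carry as well as the colonies. Log phase cells were harvested from liquid culture in mid log phase, and cells of such cultures were plated on solid medium and harvested as colonies on Day 2, Day 3 and Day 4. Each of the 4 groups has 2 libraries. PAT-seq, the assay used, sequences the 3′ ends of polyadenylated RNA and reads into the poly(A) tail, which gives a count and a tail length per gene.

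The mitochondrial ribosome translates the few proteins encoded by mitochondrial DNA, which are mostly core subunits of the respiratory chain and of ATP synthase. In yeast all but one of its proteins are encoded in the nucleus, made in the cytosol and imported, and the remaining one, Var1, is made inside the mitochondrion. Many of the messenger RNAs for these proteins are bound by Puf3, an RNA-binding protein of the Pumilio family that recognises a short element starting with UGUA in 3′ untranslated regions, promotes decay of its targets when glucose is plentiful, and has been linked to their translation near mitochondria. Colonies differ from liquid culture in that growth slows as nutrients around the colony are used up, and cells within a colony need not be alike, so that a library averages over cells in different states. In such bulk samples, fewer cells that express a gene and less of its RNA per cell cannot be told apart.

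The libraries held 6203115 to 8441949 counts and 2765040 to 3782771 reads with a tail. All 69 members were in the count table and passed the filters of both tests, with 90 to 3110 counts per library and at least 26 tailed reads. MET17 (the MET15 locus) had 0 counts in the 8 libraries, LEU2 had 0 to 10 and URA3 had 0 to 8, which fits the deletions in the labels. MRPL19 is merged with an overlapping entry in the count table, so its assignment is uncertain. The members lie on 14 chromosomes, and the only neighbouring pair is MRPS12 and RSM19, 229 bp apart on chromosome XIV.

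The sequence after the stop codon was examined first, because the Puf3 element is the feature for which these genes are best known and the selection by name did not use it. The motif TGTANATA (N is any base) was present on the coding strand within 200 bases after the stop codon in 67 of 69 members (97.1%), against 844 of 6002 protein-coding genes (14.1%) in the R64 genome. It was present in 40 of 40 large subunit genes and 27 of 28 small subunit genes, and the members without it in that window were MRP8 and RSM22. On the opposite strand the share was 18.8% for members and 13.2% for all genes. The sites below belong to some of the members with the largest rises on Day 2 or the largest drops on Day 4, the drops being against Log phase or Day 2. They are given in R64 coordinates, written 5′ to 3′ on the coding strand with the motif in capitals.
IMG1 (chrIII:209863-209892, minus strand): cacccatctccTGTATATAagaaaaatagt
MRPL35 (chrIV:1111710-1111739, plus strand): ttatagtatccTGTACATAtaaaataacgt
MRPL6 (chrVIII:392535-392564, minus strand): agggaatacctTGTAAATAtcctatgaaaa
RSM10 (chrIV:540462-540491, plus strand): gatttcgtactTGTAAATAaaataggtgaa
MNP1 (chrVII:375739-375768, plus strand): ggaatatatcaTGTAAATAtgtttaactct
RSM26 (chrX:619111-619140, plus strand): atcttatatacTGTAAATAgttttatttta
MRPL20 (chrXI:599049-599078, minus strand): aataacaatcgTGTAAATActactctataa
MRPL1, the site nearer the stop codon (chrIV:682668-682697, minus strand): acttttttaatTGTATATAtatatatactg
MRPL1, the site farther away (chrIV:682619-682648, minus strand): atataaaatcaTGTACATAcaaagtaaccg
Members that rose and members that fell are both among these.

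The 67 members held 81 sites, with 1 site in 54 members, 2 in 12 members and 3 in RSM19. The first base of the motif lay 8 to 165 bases after the stop codon, with a median of 54 bases, and no member site fell in another coding region. A C stood 2 bases before the motif in 66.7% of member sites, against 24.0% of the 842 sites in other genes, and a motif preceded by that C was found in 54 of 69 members against 4.22% of all protein-coding genes. The fifth base of the motif was A in 37 sites, T in 26, C in 17 and G in 1. The motif of the related protein Puf4 (TGTANANTA) and the longer Puf5 motif were each found on the coding strand in 1 of 69 members, against 7.36% and 2.22% of all genes, in the same window. COX17, a well-studied Puf3 target outside the list, held 2 sites, which served as a check of the search. Motif matches describe the genome sequence, and binding was not measured.

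**Figure D1:**
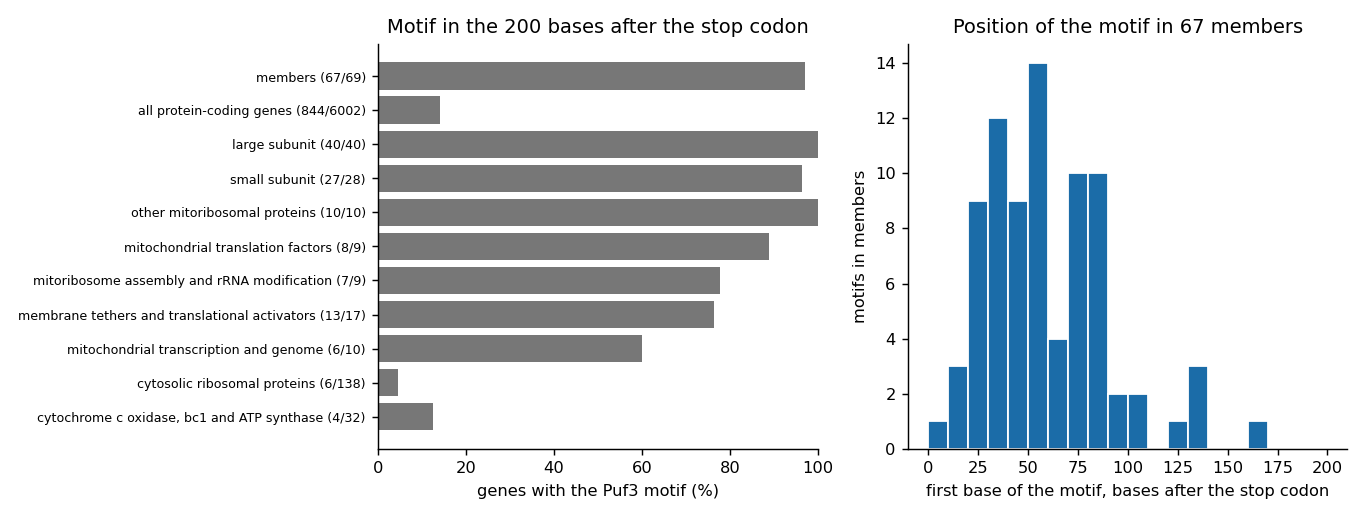
Left, the percentage of genes with TGTANATA in the 200 bases after the stop codon, on the coding strand, for the members, for all protein-coding genes and for related lists, with the counts in the row names. Right, the number of motifs in members by distance of the first base from the stop codon in bases. The members reach 97.1% against 14.1% of all protein-coding genes, and most of their motifs lie within 100 bases.

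As a group, the mitochondrial ribosomal protein mRNAs were most abundant in the youngest colonies and declined as the colonies aged. They made up 0.486% and 0.461% of all counts in the Log phase libraries, 0.936% and 0.872% on Day 2, 0.820% and 0.765% on Day 3, and 0.562% and 0.578% on Day 4. With TMM scaling, which aligns the bulk of genes between libraries, their summed level in CPM (counts scaled to the size of the library) was 5892 and 5809 in Log phase, 9057 and 8123 on Day 2, 7680 and 7160 on Day 3, and 5132 and 5238 on Day 4. The groups did not overlap on either scale, but Day 4 lay above Log phase as a share of counts and below it as TMM-scaled CPM. The mRNAs for cytosolic ribosomal proteins took 32.6% and 33.6% of the counts in Log phase and 6.20% to 16.7% in colonies, and their part in the difference between scales was not tested. Total-count scaling moved the median log2 fold change of all genes against Log phase by 0.38 on Day 2, 0.40 on Day 3 and 0.44 on Day 4, and between colony days by at most 0.06.

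By mean CPM, 42 members were highest on Day 2, 20 on Day 3, 4 in Log phase (MRP10, MRP13, MRPL49 and RSM26) and 3 on Day 4 (MRP20, MRPL28 and MRPS17). Among all genes tested, 17.9% were highest on Day 2, 14.2% on Day 3, 36.6% in Log phase and 31.3% on Day 4. The lowest group was Day 4 for 45 members and Log phase for 23, and RSM23 was lowest on Day 2. The ratio of the highest to the lowest group mean ranged from 1.30 for MRPL33 to 4.16 for MRPL1.

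**Figure D2:**
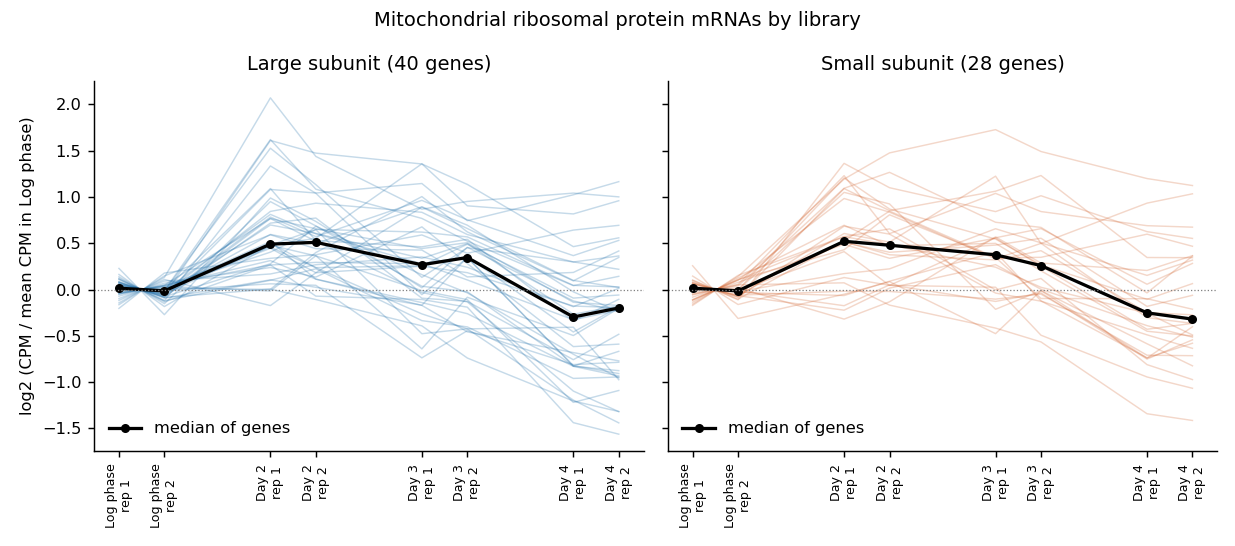
Level of each member by library, as log2 of its CPM over its mean CPM in Log phase, for 40 large subunit genes (left) and 28 small subunit genes (right). Thin lines are genes and the black line joins the medians over genes. Medians are above 0 on Day 2 and Day 3 and below 0 on Day 4 in both subunits, and single genes lie on both sides of 0 on Day 4.

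On Day 2, 42 of 69 members rose relative to Log phase and 0 fell, at an adjusted p under 0.05 in edgeR. Among all 5930 genes tested, 28.3% rose and 28.2% fell. The median log2 fold change of the members was 0.53, against 0.02 for all genes, and 63 of 69 values were positive. No member was lower at an unadjusted p under 0.05 either, and DESeq2 called 40 higher and 0 lower. Both Day 2 libraries lay above both Log phase libraries for 54 members and below both for 1, against 38.8% and 38.4% of all genes.

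The largest rise in the large subunit was that of MRPL35, a protein found in mitochondrial but not in bacterial ribosomes. MRPL35 stood at 63.5 and 76.9 CPM in Log phase, 295 and 190 on Day 2, 128 and 136 on Day 3, and 145 and 140 on Day 4. Both Day 2 libraries lay above the other 6, but they also differed most from each other. Its log2 fold change on Day 2 was 1.79 ± 0.18 (SE, adjusted p = 1.9e-08), and 0.84 when only reads with a tail were counted. Only 8.00% to 19.1% of MRPL35 reads had a tail, with the lowest shares on Day 2, and against Day 2 its Day 4 level fell by all reads (log2 fold change −0.76), while the value by tailed reads was 0.50 and was not called (edgeR adjusted p = 0.0605). Over all genes, 41.3% to 44.5% of the reads in a library had a tail. The assay reads polyadenylated RNA, so a read without a called tail need not come from RNA without a tail. The part of untailed reads in the MRPL35 differences was not tested.

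MRPL6, which belongs to the uL6 family of the large subunit, gave 48.3 and 44.6 CPM in Log phase, 142 and 129 on Day 2, 119 and 102 on Day 3, and 64 and 68.4 on Day 4. Its 4 groups were separate, in the order Day 2, Day 3, Day 4, Log phase, and the Day 2 rise was 1.54 ± 0.16 on the log2 scale (adjusted p = 2.41e-08) and 1.51 by tailed reads. IMG1, a bL19 family protein whose name comes from loss of the mitochondrial genome in its mutants, had 126 and 123 CPM in Log phase and 358 and 272 on Day 2. It was back at 136 and 170 CPM on Day 3 and at 153 and 144 on Day 4. IMG1 rose by 1.34 ± 0.16 on the log2 scale on Day 2 (adjusted p = 2.76e-07), while its changes on Day 3 (0.30 ± 0.16, adjusted p = 0.105) and Day 4 (0.26 ± 0.16, adjusted p = 0.153) were called only with total-count scaling, at 0.70 each. MRPL36 (bL31 family) rose by 1.37 ± 0.17 on the log2 scale on Day 2 (adjusted p = 3.64e-07).

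In the small subunit, the largest rise on Day 2 was that of RSM10, the uS10 family protein. RSM10 had 43.4 and 53.3 CPM in Log phase, 111 and 134 on Day 2, 160 and 136 on Day 3, and 111 and 105 on Day 4. All 6 colony libraries lay above both Log phase libraries, with a log2 fold change of 1.34 ± 0.17 on Day 2 (adjusted p = 3.8e-07), 1.61 ± 0.17 on Day 3 (adjusted p = 9.78e-09) and 1.16 ± 0.17 on Day 4 (adjusted p = 1.32e-06). RSM28 (1.23), RSM19 (1.18, uS19 family) and MRPS16 (1.05, bS16 family) were the next in order of log2 fold change among small subunit genes, and all were called.

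On Day 3, 32 members were higher than in Log phase and 4 were lower, against 34.5% and 34.4% of all genes, with a median log2 fold change of 0.32. The share of members called higher (46.4%) was therefore nearer to the background than on Day 2 (60.9%). The genes with the largest rises were RSM10, MRP8 (1.49 ± 0.16), MRPL6 (1.25 ± 0.16), MRPL16 (1.15 ± 0.16, uL16 family) and MRPS12 (1.15 ± 0.18, uS12 family, a protein of the decoding centre). The 4 lower genes were MRPL3 (−0.58 ± 0.19), MRPL49 (−0.56 ± 0.18), RSM26 (−0.49 ± 0.15) and MRPL11 (−0.37 ± 0.16). With total-count scaling none of these 4 was called, and MRPL11 had a log2 fold change of 0.028.

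Between Day 2 and Day 3, 26 members fell and 5 rose, against 25.2% and 24.2% of all genes. The largest drops were those of MRP51 (−1.10 ± 0.18), which is known to act with the 5′ leaders of mitochondrial mRNAs, of IMG1 (−1.04 ± 0.16) and of MRPL1 (−1.03 ± 0.20), the uL1 protein of the stalk near the exit site for transfer RNA. Of the 5 that rose, MRPL23 (1.04) and MRPL16 (0.92) were also called by tailed reads, while RSM23 (0.33), MRPL24 (0.31) and MRP17 (0.23) were not. By all reads, MRPL23 (0.76 ± 0.17), RSM23 (0.65 ± 0.17), MRPL16 (0.63 ± 0.16), MRPL24 (0.61 ± 0.18) and MRP17 (0.38 ± 0.14) rose. Without Day 3 replicate 1, the number that rose was 1.

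On Day 4 members were called in both directions. Relative to Log phase, 28 of 69 fell and 13 rose, with a median log2 fold change of −0.22, against 37% and 37.2% of all genes. The share of members that fell (40.6%) was thus near the background and the share that rose (18.8%) was below it. The middle 50% of members ran from −0.70 to 0.24 on the log2 scale, against 0.22 to 0.83 on Day 2. For all genes the same interval was −0.98 to 1.21 on Day 4 and −0.59 to 0.68 on Day 2, so it was wider on Day 4 there too. Direction relative to Log phase depended on the scaling: with total counts the median was 0.22, with 26 members higher and 11 lower. The median of all genes was 0.45 with total counts and 0.01 with TMM, so the members' median lay below that of all genes on both scales. Counting tailed reads only, 16 fell and 14 rose.

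MNP1 had the largest drop on Day 4. It encodes the bL12 family protein of the flexible stalk, which in bacteria recruits translation factors to the ribosome. MNP1 gave 189 and 203 CPM in Log phase, 235 and 186 on Day 2, 182 and 171 on Day 3, and 72.2 and 66.3 on Day 4. Log phase and Day 2 overlapped, Day 3 lay just below both, and the large step came between Day 3 and Day 4, at −1.35 ± 0.16 on the log2 scale (adjusted p = 3.04e-06). Against Log phase the Day 4 change was −1.50 ± 0.16 (adjusted p = 9.67e-09), and −1.06 with total-count scaling.

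MRPL20, a large subunit protein of mitochondrial ribosomes, had 165 and 173 CPM in Log phase, 232 and 199 on Day 2, 141 and 126 on Day 3, and 73.8 and 62.3 on Day 4. The groups did not overlap, with Day 2 highest and Day 4 lowest. Its Day 4 change against Log phase was −1.31 ± 0.16 (adjusted p = 7.69e-08). RSM26, a small subunit protein related in sequence to superoxide dismutases, had 144 and 155 CPM in Log phase, 157 and 133 on Day 2, 112 and 101 on Day 3, and 59.1 and 56.1 on Day 4. Here Log phase and Day 2 overlapped and Day 3 and Day 4 were each lower, with −1.38 ± 0.15 on Day 4 against Log phase (adjusted p = 3.02e-08). MRPL49 (−1.26 ± 0.19, bL21 family) and MRPL32 (−1.20 ± 0.22) followed. MRPL32 is known in yeast as a substrate that the mitochondrial m-AAA protease must trim before ribosomes assemble.

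The 13 members that were still higher than Log phase on Day 4 included RSM10, MRPL35 (1.02 ± 0.18), MRPL28 (1.09 ± 0.19) and MRPS17 (0.98 ± 0.18, uS17 family), and also MRP8 (1.17 ± 0.16). MRPL28 had 25.9 and 23.7 CPM in Log phase, 52.4 and 51.1 on Day 2, 54.8 and 41.5 on Day 3, and 50.4 and 55.6 on Day 4. Its 3 colony groups overlapped and all lay above Log phase. In all, 11 members were higher than Log phase on each colony day, 12 were higher on Day 2 and lower on Day 4, and 0 were lower on each colony day. Among all genes tested, 21.8% were higher on each colony day, 1.74% were higher on Day 2 and lower on Day 4, and 22.0% were lower on each colony day. These comparisons share the Log phase libraries. MRPL9, MRPL38, MRPL4 and MRPL33 were not called in any comparison with Log phase, and MRPL33 was the single member not called in any of the 6 comparisons. With total counts each of these genes was called higher on Day 2 (0.70, 0.66, 0.57 and 0.60). By tailed reads MRPL33 fell from Day 2 to Day 4 (−0.93, edgeR adjusted p = 0.00424) and from Day 3 to Day 4 (−0.79, edgeR adjusted p = 0.0332).

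**Figure D3:**
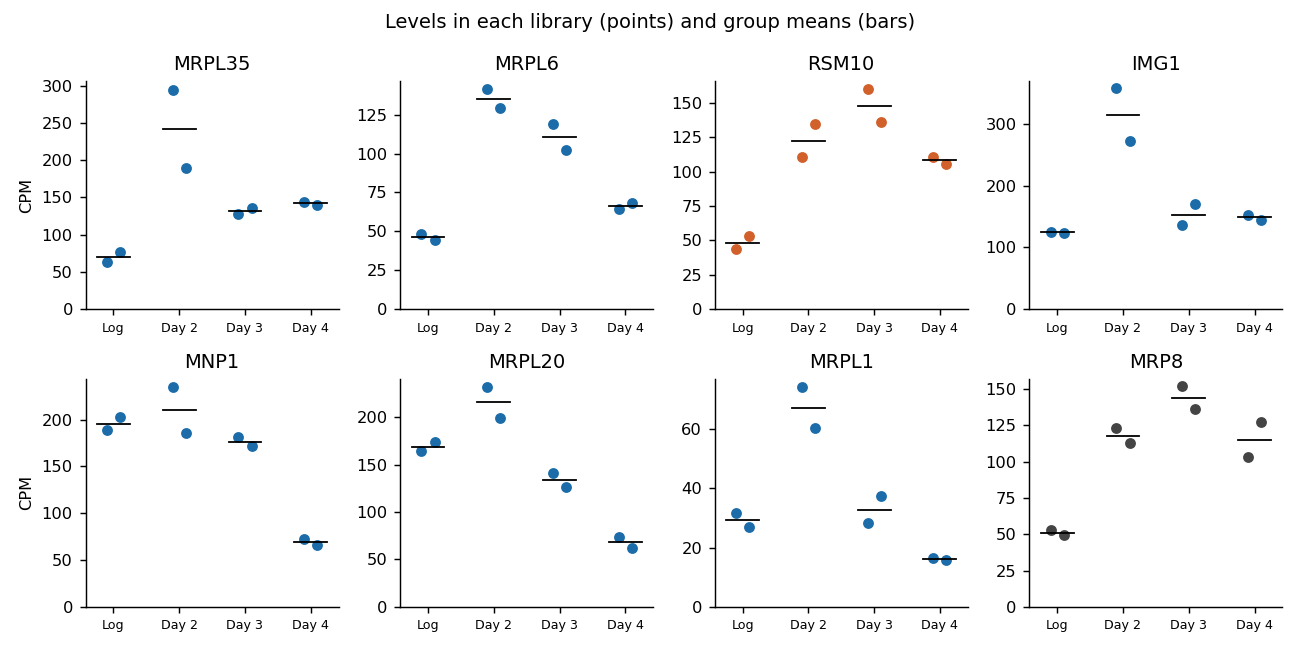
CPM of 8 members in each library, with 2 points per group and a bar at the group mean, on axes that start at 0. Large subunit genes are blue, RSM10 of the small subunit is orange and MRP8 is grey. MRPL35, MRPL6, IMG1 and MRPL1 are highest on Day 2, RSM10 and MRP8 are above Log phase on each colony day, and MNP1 and MRPL20 are lowest on Day 4.

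Among the colonies, the decline with age was common to most members. From Day 3 to Day 4, 44 of 69 fell and 0 rose, against 14.6% and 11.8% of all genes, with a median log2 fold change of −0.56. No member was higher at an unadjusted p under 0.05, and DESeq2 called 45 lower and 0 higher. The number that fell was 29 without Day 3 replicate 1, 26 without Day 4 replicate 1 and 22 without Day 4 replicate 2. After MNP1, the largest drops were those of MRPL32 (−1.12 ± 0.22), MRPL50 (−1.09 ± 0.16, bL9 family), MRPL27 (−1.09 ± 0.16) and MRPL1 (−1.02 ± 0.21).

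Over the whole span from Day 2 to Day 4, 52 members fell and 3 rose, against 32.4% and 30.5% of all genes, with a median of −0.81. This comparison spans the earlier pair and shares its libraries with them. MRPL1 fell most, from 74.1 and 60.4 CPM on Day 2 through 28.3 and 37.3 on Day 3 to 16.6 and 15.7 on Day 4, having stood at 31.8 and 27.0 in Log phase. Its Day 2 libraries lay above all others and its Day 4 libraries below all others, with a log2 fold change of −2.05 ± 0.21 (adjusted p = 1.55e-08). MRPL32 (−1.85 ± 0.22), MRP51 (−1.69 ± 0.19), MRPL20 (−1.66 ± 0.16) and MNP1 (−1.60 ± 0.16) followed. The 3 that rose were RSM23 (0.51 ± 0.17), MRPS17 (0.43 ± 0.18) and MRPL16 (0.37 ± 0.16). By tailed reads MRPL16 was called (0.75, edgeR adjusted p = 0.00218). RSM23 (0.12, edgeR adjusted p = 0.647) and MRPS17 (−0.28, edgeR adjusted p = 0.297) were not called by tailed reads. The number that rose was 0 without Day 4 replicate 2, and 1 without Day 4 replicate 1 or without either Log phase replicate.

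**Figure D4:**
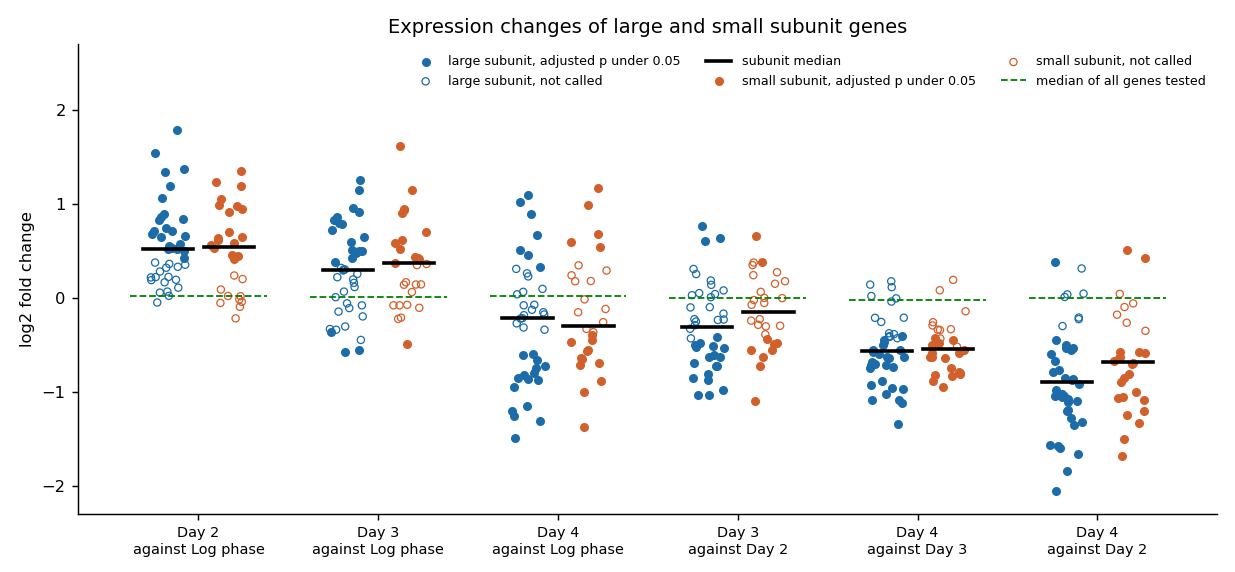
Log2 fold change of each large subunit gene (blue) and small subunit gene (orange) in 6 comparisons. Filled points have an adjusted p under 0.05, black bars are subunit medians and the dashed green line is the median of all genes tested. Both subunits lie mostly above 0 on Day 2 against Log phase and mostly below 0 on Day 4 against Day 3 and against Day 2.

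Counts and medians by subunit are given as a description, and the difference between subunits was not tested. On Day 2 against Log phase, 23 of 40 large subunit genes and 18 of 28 small subunit genes rose, with medians of 0.52 and 0.54. On Day 4 against Log phase, 16 large subunit genes fell and 7 rose (median −0.22), and 12 small subunit genes fell and 5 rose (median −0.30). Between Day 2 and Day 3, 18 large subunit genes fell (median −0.31) and 8 small subunit genes fell (median −0.15). Between Day 2 and Day 4, 32 large subunit genes fell (median −0.90) and 20 small subunit genes fell (median −0.68). Among all genes tested, 25.2% fell from Day 2 to Day 3 and 32.4% from Day 2 to Day 4. Tails were called shorter from Day 2 to Day 4 in 10 of 40 large subunit genes (25%) and in 12 of 28 small subunit genes (42.9%). The share of all genes, 32%, lay between these. The small subunit made up 35.8% and 36.3% of the summed CPM of both subunits in Log phase, 34.4% and 35.7% on Day 2, 38.5% and 37.6% on Day 3, and 39.4% and 39.7% on Day 4. That share was higher in both Day 4 libraries than in the other 6, and it is given as a description because no test was planned for it.

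MRP8, placed in neither subunit, lacked the motif, as did RSM22. It had 52.6 and 49.7 CPM in Log phase, 123 and 113 on Day 2, 152 and 136 on Day 3, and 103 and 127 on Day 4. Day 2 and Day 4 overlapped, and every colony library was above Log phase, with 1.20 ± 0.16 on Day 2 (adjusted p = 1.06e-06). The share of its reads with a tail went from 44.3% and 40.8% in Log phase to 29.1% and 27.6% on Day 4. Over all members that share went from 42.5% and 41.5% to 38.6% and 37.6%. Over all genes it went from 44.5% and 42.8% to 42.0% and 41.3%. IMG2, named like IMG1 for the integrity of the mitochondrial genome, rose by 0.57 ± 0.18 on Day 2 (adjusted p = 0.0108) and 0.59 ± 0.18 on Day 3 (adjusted p = 0.00582). On Day 4 IMG2 stood at 34.9 and 34.5 CPM, against 34.9 and 32.7 in Log phase.

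The naming rule misses some proteins of the mitochondrial ribosome. Of 10 such genes tested, 6 rose on Day 2 and 0 fell, 4 fell on Day 4 against Log phase and 0 rose, and 7 fell from Day 2 to Day 4. Among all genes, 28.3% rose on Day 2, 37% fell on Day 4 against Log phase, which is close to 4 of 10, and 32.4% fell from Day 2 to Day 4. PET123, a small subunit protein, had 67.5 and 63.4 CPM in Log phase, 123 and 116 on Day 2, and 46.6 and 50.0 on Day 4, and rose by 0.87 ± 0.16 on Day 2 (adjusted p = 5.57e-05). NAM9, the uS4 family protein, fell by 0.68 on the log2 scale on Day 4 against Log phase (SE 0.18, adjusted p = 0.002), and MHR1, a large subunit protein also known for a role in recombination of mitochondrial DNA, rose by 1.00 ± 0.16 on Day 2 (adjusted p = 1.13e-05). VAR1, the mitochondrially encoded small subunit protein, had 1 to 12 counts per library and was not tested. All 10 tested genes held the motif.

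Other parts of the mitochondrial gene expression system were also examined. Among all genes tested, 28.3% rose and 28.2% fell on Day 2, and 37.2% rose and 37% fell on Day 4, against Log phase. Of 9 translation factors, 4 rose and 0 fell on Day 2, and on Day 4 against Log phase 4 rose (44.4%) and 3 fell (33.3%), near those shares. TUF1, the elongation factor that delivers transfer RNA, fell by 0.76 on the log2 scale on Day 4 (SE 0.14, adjusted p = 5.07e-05), while MEF2, whose mammalian counterpart acts in ribosome recycling, rose by 1.18 ± 0.16 (adjusted p = 5.86e-07). MRF1, the release factor, rose by 1.31 ± 0.19 on Day 2 (adjusted p = 4.09e-06) and was at its Log phase level on Day 4 (−0.04 ± 0.19, adjusted p = 0.872). Of 9 genes for ribosome assembly and rRNA modification, 2 rose and 3 fell on Day 2. Among those that fell was MSS116, an RNA helicase, at −1.12 ± 0.16 (adjusted p = 3.31e-06). On Day 4 against Log phase 1 of the 9 rose (11.1%) and 2 fell (22.2%), both below the shares of all genes. The gene that rose was MRM2, an rRNA methyltransferase, at 1.76 ± 0.19 (adjusted p = 1.83e-08). Those that fell were MSS116 (−1.29) and MRM1 (−0.61).

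Of 16 membrane tethers and translational activators tested, 7 rose (43.8%) and 1 fell (6.25%) on Day 4 against Log phase. Among all genes tested, 37.2% rose and 37% fell, so the share that rose was near the background and the share that fell below it. PET494, an activator of COX3 mRNA translation, rose by 1.68 ± 0.22 (adjusted p = 3.72e-07), and ATP22, which acts on the mRNA for an ATP synthase subunit, rose by 1.49 ± 0.18 (adjusted p = 1.03e-07). Of 10 genes for mitochondrial transcription and genome maintenance, 3 rose (30%) and 4 fell (40%) on Day 4, near the shares of all genes. RPO41, the mitochondrial RNA polymerase, rose by 0.93 ± 0.18 (adjusted p = 4.85e-05) and its partner MTF1 fell by 0.77 on the log2 scale (SE 0.19, adjusted p = 0.000688).

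Set beside these, cytosolic ribosomal protein genes fell in 133 of 138 cases on Day 2 and 136 of 138 on Day 4 against Log phase, with medians of −1.40 and −2.88, and 0 rose. Nuclear genes for cytochrome c oxidase, the bc1 complex and ATP synthase rose in 29 of 32 cases on Day 2 and 32 of 32 on Day 4, with medians of 1.24 and 2.07. Members had medians of 0.53 and −0.22 in the same comparisons. The motif was present in 6 of 138 cytosolic ribosomal protein genes and 4 of 32 respiratory genes. PUF3 mRNA itself stood at 99.1 and 91.4 CPM in Log phase, 82.6 and 97.3 on Day 2, 81.5 and 107 on Day 3, and 202 and 188 on Day 4. Both Day 4 libraries lay above the other 6, at 1.03 ± 0.16 against Log phase (adjusted p = 4.34e-06) and 1.12 ± 0.16 against Day 2 (adjusted p = 2.61e-06).

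Few members had a called change of poly(A) tail length relative to Log phase. The median of the deposited mean tail lengths over the 69 members was 19.6 and 19.2 nt in Log phase, 20.7 and 21.2 on Day 2, 19.1 and 18.9 on Day 3, and 18.9 and 18.5 on Day 4. All genes tested had medians of 19.7, 19.1, 20.3, 20.5, 18.2, 18.3, 18.1 and 17.9 nt in the same libraries, so the groups stood in the same order, and the members lay 0.318 to 0.875 nt above all genes in the colony libraries.

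On Day 2 against Log phase, 0 members were called longer and 0 shorter by limma, against 1.1% and 0.0928% of 5388 genes. At an unadjusted p under 0.05 there were 19 members with longer tails and 1 with shorter tails. At that level 19.9% of all genes were longer and 2.82% shorter, so longer tails on Day 2 were not limited to members. On Day 3, 0 were called longer and 1 shorter (0.223% and 2.02% of all genes), with 2 longer and 7 shorter at an unadjusted p under 0.05 (19% of all genes were shorter at that level). On Day 4, 0 were called longer and 2 shorter (1.19% and 8.61%), with 3 longer and 15 shorter at an unadjusted p under 0.05 (24.7% of all genes shorter). The Day 3 call was IMG2, at 20.8 and 21.8 nt in Log phase and 15.5 and 15.0 on Day 3 (−6.00 ± 0.90, adjusted p = 0.0276). The Day 4 calls were MRPL35 (−5.25 ± 1.35 nt, adjusted p = 0.0438) and MRPS18 (−3.04 ± 0.74 nt, adjusted p = 0.0367). Both Day 4 calls were lost without either Day 4 library, without Log phase replicate 1 or without weights. Leaving out either library of Day 3 or of Log phase removed the IMG2 call.

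Between Day 2 and Day 4, 22 members had shorter tails and 1 had longer tails, against 32% and 0.947% of all genes, with a median change of −2.07 nt against −2.17 nt for all genes. The members' share called shorter (31.9%) was thus at the background. The number called shorter was 14 without Day 2 replicate 1, 10 without Day 2 replicate 2, 12 without Day 4 replicate 1 and 8 without Day 4 replicate 2. MRPL24, a bL28 family protein, had the largest change, with 17.4 and 16.6 nt in Log phase, 19.5 and 24.3 on Day 2, 14.4 and 16.1 on Day 3, and 13.2 and 11.7 on Day 4 (−9.45 ± 1.43 nt, adjusted p = 0.00541). Its Day 2 libraries differed from each other by more than those of any other group. Tails of RSM10 shortened from 18.4 and 18.5 nt on Day 2 to 12.9 and 11.8 on Day 4 (−6.06 ± 1.61, adjusted p = 0.023), and those of MRPL51 from 22.0 and 22.5 to 16.7 and 15.8 nt (−5.98 ± 0.83, adjusted p = 0.00514). In Log phase the RSM10 libraries differed widely, at 20.5 and 13.8 nt, on both sides of the Day 2 values. MRPL50 was the single member called longer, from 15.9 and 16.3 to 18.7 and 18.4 nt (2.50 ± 0.68, adjusted p = 0.025), a call lost when any of the 4 libraries compared was left out.

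Change in tail length and change in level ran weakly in opposite directions across members. Across the 69 genes Pearson's r was −0.15 on Day 2, −0.35 on Day 3 and −0.42 on Day 4 against Log phase, and −0.35 from Day 2 to Day 4. Across all 5218 genes tested for both measures it was −0.20, −0.20, −0.18 and −0.16. These values describe genes measured in the same libraries, in which tail length and level come from the same reads, and genes are not independent replicates. From Day 2 to Day 4, RSM10 and MRPL24 combined a shorter tail with log2 fold changes of −0.18 and 0.01 in level, while MNP1 (−1.60) had a tail change of −0.60 ± 1.30 nt that was not called (adjusted p = 0.74).

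**Figure D5:**
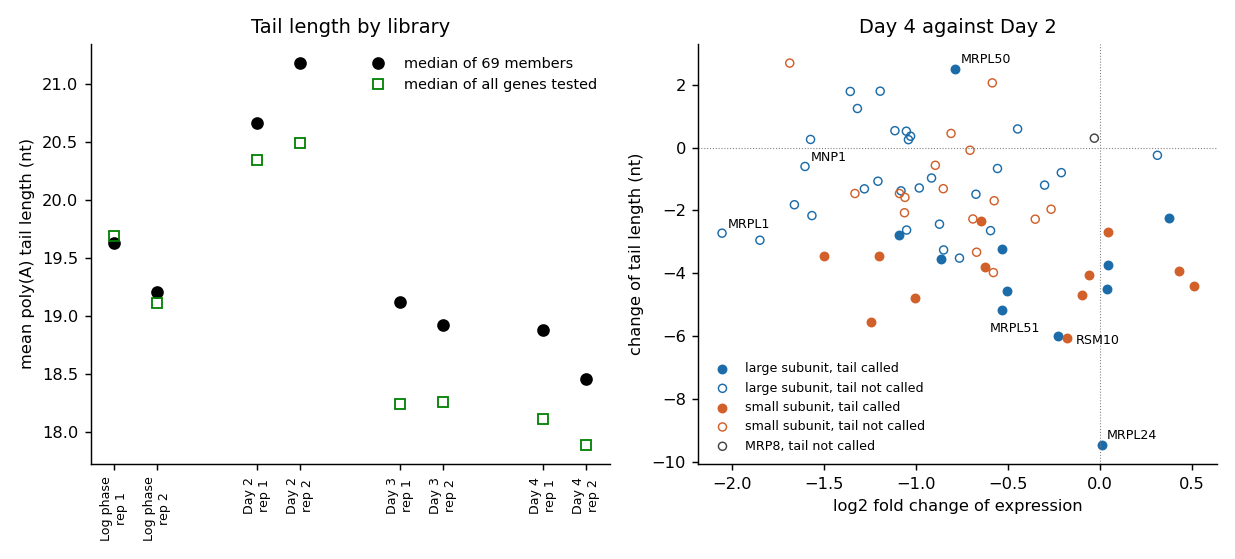
Left, the median over genes of the mean poly(A) tail length in nt in each library, for 69 members (black) and for all genes tested (green squares). Right, change of tail length in nt against log2 fold change of level for each member from Day 2 to Day 4, with filled points at an adjusted p under 0.05 for tail length. Tails are longest on Day 2 in both sets, and most members lie below and to the left of 0 on the right.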

How the data were processed

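Per the labels' protocols, PAT-seq libraries were made from total RNA and read on a SOLiD instrument. The authors deposited read counts per gene and library, counts of tailed reads, and the mean tail length per gene in nt. The deposited tail lengths ran from 4 to 49 nt. The gene table deposited by the authors gives positions and, pooled over libraries, reads, tail length and the tailed reads as a fraction of reads. How reads were aligned and tails called is not stated in these sources. Since 5801 of 5813 gene positions (99.8%) equal those of R64, sequences were read from that genome (RefSeq). Every per-sample column was mapped to a sample.

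Expression was tested with edgeR 4.0.16 on counts (TMM, filterByExpr, quasi-likelihood F test on all 8 libraries with a mean for each group) and tail length with limma 3.58.1 (10 tailed reads or more per library, weights by tailed reads capped at 100, trended variance). Both were run on simulated data in which few genes changed, on Day 2 alone. The simulated counts did not hold the difference in scaling between Log phase and colonies, so they give no check of it. P-values were adjusted by Benjamini-Hochberg over the whole set tested and called under 0.05. The SE for edgeR was obtained by dividing the log2 fold change by the root of F, and limma gave its moderated SE. DESeq2 1.42.0, R 4.3.3, Python 3.11.15, pandas 2.3.3, NumPy 2.4.6 and matplotlib 3.10.9 were also used. TMM factors were 0.825 and 0.794 for Log phase and 1.03 to 1.10 for colonies, with a biological coefficient of variation of 0.128.

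Members and lists were chosen with earlier results of these data known. Genes were named by rule: per comparison up to 5 called members with the largest rise and drop at 20 CPM or more in the higher group, up to 3 per direction for tails, MRP8, MNP1, IMG1 and IMG2, members never called, and up to 3 called genes per other list. Other genes were named after their values were seen, and some genes that the rule names are left out. The labels do not describe replicates as separate cultures, so p-values reflect the spread between these libraries, which may be technical. Same-numbered libraries did not deviate together (r −0.0349 to 0.00554), so no block was used. Alternatives covered normalisation, filters, DESeq2, tailed reads, weights, trend, a replicate block, motif windows and omission of single libraries, where the lone library of a group is taken to vary like other groups.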

Additional observations from a re-analysis of the deposited data

How the results depend on the processing

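With total counts, 50 members were higher on Day 3 and 0 lower, and 26 were higher and 11 lower on Day 4, against Log phase. The median of all genes with total counts was 0.41 on Day 3 and 0.45 on Day 4, against 0.71 and 0.22 for the members. With tailed reads only, 1 was lower on Day 3 and 16 on Day 4. MRPL11 turned to 0.20 (tailed reads) and 0.028 (total counts) on Day 3 against Log phase. With tailed reads, MRPL35 turned to 0.10 on Day 3 against Day 2 and MRPS17 to −0.28 on Day 4 against Day 2. These are not all the changes of sign. From Day 2 to Day 4, 52 of the 55 called members kept their sign with tailed reads. On Day 4 against Log phase, 40 of the 41 called members kept it with total counts. The cause was not tested, except that total-count scaling moves all genes by its own construction. With at least 30 tailed reads per library, 3 members were longer on Day 2 and 4 shorter on Day 4 against Log phase, and without weights 0 were shorter on Day 4. The motif share was 89.9% in a window of 100 bases, which is shorter by construction, and 97.1% in 300 bases. DESeq2, other size factors and no count filter left the number of members called in each expression comparison within 1.5 times of that reported.

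Replicate numbers do not pair the libraries. With a replicate block the tail calls fell to 0 shorter on Day 3 and 1 on Day 4 against Log phase, and no expression count moved by over 1.5 times.

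Leaving out 1 library at a time, members called against Log phase ranged from 31 to 42 higher and 0 lower on Day 2, 23 to 34 higher and 2 to 6 lower on Day 3, and 10 to 17 higher and 23 to 30 lower on Day 4. From Day 2 to Day 3 they were 1 to 7 higher and 18 to 26 lower, from Day 3 to Day 4 0 higher and 22 to 51 lower, and from Day 2 to Day 4 0 to 3 higher and 47 to 53 lower. The 2 lower on Day 3 were found without Day 3 replicate 2 or without Log phase replicate 1. Shorter tails ranged from 0 to 1 on Day 3 and 0 to 4 on Day 4 against Log phase, and from Day 2 to Day 4 from 8 to 23, with 0 to 1 longer. The Day 4 tail calls against Log phase were 0 without either Day 4 library or Log phase replicate 1, and 4 without either Day 2 library. The large minus small subunit difference in median log2 fold change ranged from −0.0303 to 0.0768 on Day 2, −0.178 to 0.0861 on Day 3 and −0.0453 to 0.120 on Day 4 against Log phase, −0.241 to −0.0942 from Day 2 to Day 3, −0.0686 to 0.0511 from Day 3 to Day 4 and −0.283 to −0.140 from Day 2 to Day 4.

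With 2 libraries per group, small differences are not resolved, and tail lengths of members rest on as few as 26 reads in a library.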

Other observations

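Members were also sorted by ancestry. The 42 members of families shared with bacterial ribosomes had 25 genes higher on Day 2 against Log phase and 0 lower (median 0.55), and the 26 ribosomal members without such a family had 16 higher and 0 lower (median 0.51). On Day 4 against Log phase the first set had 8 higher and 15 lower (median −0.16) and the second 4 higher and 13 lower (median −0.41). From Day 2 to Day 4 the medians were −0.83 and −0.81. Among all genes tested, 28.3% were higher and 28.2% lower on Day 2, and 37.2% higher and 37% lower on Day 4, against Log phase. The difference between the sets of members was not tested.

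The number of motifs was set beside the change in level. From Day 2 to Day 4, 41 of 54 members with 1 site fell (median −0.80), as did 10 of 13 members with 2 or 3 sites (median −1.01). On Day 4 against Log phase the order was reversed. There 23 of 54 members with 1 site fell (median −0.25) and 4 of 13 with 2 or 3 sites (median −0.12), against 37% of all genes. From Day 3 to Day 4 the medians were −0.57 and −0.56. The difference between these sets was not tested. Among the 765 tested genes outside the list that hold the motif, 259 rose and 169 fell on Day 2 against Log phase (median 0.17), and 164 rose and 302 fell from Day 2 to Day 4 (median −0.22). On Day 2 these are 33.9% and 22.1%, against 28.3% and 28.2% of all genes tested. From Day 2 to Day 4 they are 21.4% and 39.5%, against 30.5% and 32.4% of all genes. Members had medians of 0.53 and −0.81 in the same comparisons.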
